A study of Mus musculus with 4 samples.

Results

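Intergenic open chromatin lying more than 50 kb and at most 200 kb from the nearest annotated transcription start site is described here in mouse periosteal stem/progenitor cells that carried or lacked Plagl1. Regions at this distance were taken from the authors' deposited annotation as rows whose class was intergenic, whose absolute distance to the start site was above 50000 bp and at most 200000 bp, and which did not lie in an annotated repeat. They numbered 1472 of 15221 annotated peaks, and the annotated peaks were themselves drawn from 85925 consensus peaks. The distance rule used no fold. The annotated peaks, however, were exactly the consensus peaks whose p was below 0.05 and whose absolute log2 fold reached 0.2. Every distal peak had thus already passed those limits. Counts over the distal peaks are therefore given as descriptions, with no test of their own.

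The assay was ATAC-seq, which reads out open chromatin through the DNA that a transposase can reach and tag. Control cells came from Plagl1fl/fl mice without Cre and knockout cells from Ctsk-iCre;Plagl1fl/fl mice, with 2 libraries of each. Ctsk-iCre is a Cre recombinase under the control of cathepsin K, a gene of osteoclasts that is also used to mark periosteal progenitors. The Cre was present in the knockout alone, so an effect of the recombinase and an effect of the deletion cannot be told apart. In both groups the cells were grown out of the mandibular angle at an age of 8 weeks. Both groups then received osteogenic medium for 3 days, with ascorbic acid (50 µg/ml), β-glycerophosphate (5 mM) and the glucocorticoid dexamethasone (1e-07 M). Each peak has a single fold and p in the tables, so no value per library can be shown and depths are unknown. Whether the 2 libraries of a genotype came from separate animals is not stated in the labels. No annotated peak was assigned to Plagl1, so the deletion could not be checked in these tables. Positive folds are taken to mean higher accessibility in the knockout, although the gain and loss labels of the authors' deposited table do not name a genotype.

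Open regions far from genes are often enhancers, stretches that bind transcription factors and can contact a promoter by looping of the chromatin. Several such regions commonly surround genes that control development or cell identity. The annotation names the gene with the nearest start site, which need not be the gene that a distal region acts on. Plagl1 is a transcription factor with zinc fingers, and the study's title links it to Klf4 and Irx5 in the osteogenesis of periosteal progenitors. In bulk libraries, a change in the number of cells with an open region and a change in how open it is in each cell cannot be told apart.

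The distal peaks were split evenly between the directions. In the authors' deposited table, 734 had a log2 fold above 0 and 738 below 0. An edgeR FDR under 0.05 was reached by 439 of the 1472 distal peaks (29.8%), against 30.6% of all annotated peaks and 5.62% of all consensus peaks in the authors' deposited table. Among the called distal peaks, 230 were gained and 209 were lost in the knockout in the authors' deposited table. The shares of all annotated peaks called gained and lost were 17.6% and 13.1%, and of all consensus peaks 3.14% and 2.48%. The gained share of called distal peaks was 52.4%, with an exact 95% interval (Clopper-Pearson) from 47.6 to 57.1% that covers counting error alone, neighbouring peaks not being independent. The authors' deposited table gave gained distal peaks a median of 0.64 on the log2 scale, which is 1.55-fold, and lost ones -0.42, which is 0.745-fold. An absolute log2 fold of at least 1 was reached by 33 of the gained and 5 of the lost peaks in the authors' deposited table. The deposited test barely used a peak's own spread between libraries, and with an assumed coefficient of variation of 0.1 between libraries added, 5 of the 439 calls would remain.

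Size of fold and strength of signal were tied to each other. The p limit of the annotation builds in part of this tie. The standard error is larger at weak signal, so a weak peak needs a larger fold to pass. Gained distal peaks had a median mean signal of 6.38 CPM (counts scaled to the library total) and a median width of 481.5 bp in the authors' deposited table. Lost ones had 14.1 CPM and 719 bp, so lost peaks were the stronger and wider. In the weakest of 4 bins of signal, below 3.84 CPM, 58 distal peaks were gained and 11 lost in the authors' deposited table. In the strongest bin, above 13.7 CPM, 49 were gained and 107 lost. With the running median of the fold along signal subtracted, 206 distal peaks were gained and 163 lost. In the weakest bin 32 were then gained and 20 lost. In the strongest bin the order turned round, with 66 gained and 47 lost. The 2 ends of the fold range lay at weak peaks. The largest gain, 2.25 on the log2 scale in the authors' deposited table (SE 0.660 implied by the F), was a peak of 0.777 CPM assigned to Zfp709. The largest loss, -1.67 (SE 0.553) in the authors' deposited table, was a peak of 1.10 CPM assigned to Spats2l.

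**Figure D1:**
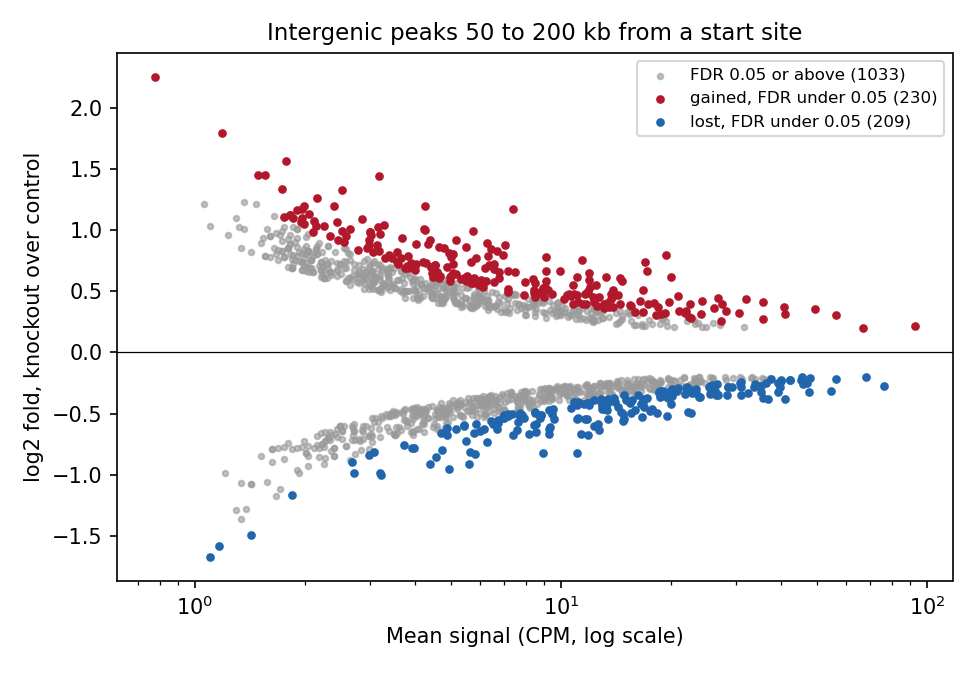
Each point is 1 of the 1472 intergenic peaks 50 to 200 kb from a start site, by its mean signal (CPM, log axis) and its log2 fold, knockout over control, in the authors' deposited table. Red points are the 230 gained and blue points the 209 lost at an FDR under 0.05. Red points reach weaker signal than blue ones. The empty band round 0 comes from the p and fold limits of the annotation, and the p limit widens it at weak signal.

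Direction differed with distance from the start site. Of 2969 intergenic peaks lying 1 to 50 kb away, 61.3% had a fold above 0 in the authors' deposited table (Clopper-Pearson 95% interval 59.5 to 63.0%). The share was 49.9% (47.3 to 52.5%) in the distal peaks and 36.3% (31.4 to 41.5%) in the 366 peaks beyond 200 kb. Called peaks of the authors' deposited table followed the same order, with 587 gained and 324 lost at 1 to 50 kb, 230 and 209 at 50 to 200 kb, and 44 and 72 beyond 200 kb. Within the distal peaks the share above 0 was 50.4% at 50 to 75 kb, 48.8% at 75 to 100 kb, 51.0% at 100 to 150 kb and 47.6% at 150 to 200 kb. The intervals of these 4 bins overlap. At 150 to 200 kb the called peaks of the authors' deposited table were 21 gained and 34 lost. The order of near, distal and farthest peaks was present in each of the 4 bins of signal. The shares above 0 were 76.7, 68.0 and 63.1% in the weakest bin and 43.6, 28.6 and 19.4% in the strongest. The gained share of called peaks with the trend along signal subtracted was 72.9% at 1 to 50 kb, 55.8% at 50 to 200 kb and 40.4% beyond 200 kb. The difference between distances was not tested.

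**Figure D2:**
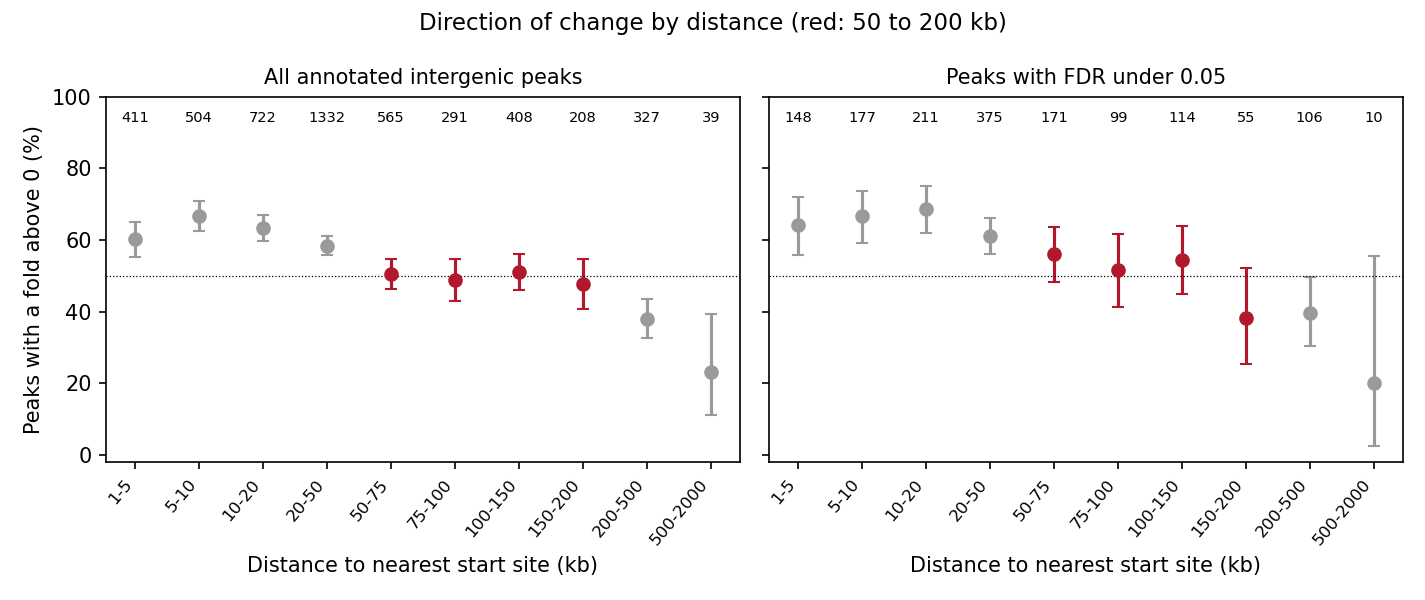
Share of intergenic peaks with a log2 fold above 0 in the authors' deposited table, by distance to the nearest start site in kb, for all annotated peaks (left) and those with an FDR under 0.05 (right). Bars are exact Clopper-Pearson 95% intervals, the numbers at the top are peaks per bin, and red marks 50 to 200 kb, where the share in the left plot lies between 47.6 and 51.0%.

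Both sides of the start site held gained and lost peaks in similar numbers. Upstream of the start site lay 764 distal peaks, with 116 gained and 101 lost in the authors' deposited table. Downstream lay 708, with 114 gained and 108 lost. Intergenic peaks of the same distance inside annotated repeats, which are not members, numbered 319, with 55 gained and 37 lost in the authors' deposited table. Only 13 distal peaks were annotated as CpG islands, of which 2 had a fold above 0, and 3 were lost and 0 gained. One of the 3 lay 53103 bp upstream of Dlk1, an imprinted gene, with a log2 fold of -0.46 (SE 0.145). Among chromosomes, 10 had the highest gained share of called distal peaks in the authors' deposited table, with 27 gained and 7 lost of 104. Chromosome 2 came next, with 22 and 7 of 93, and chromosome 6 had the lowest, with 8 and 18 of 93. On chromosome 10, 6 of the gains were assigned to 4930431F10Rik, 3 to 4930563J15Rik and 3 to Igf1. The difference between chromosomes was not tested. Next to 50 kb, the authors' deposited table gave log2 folds of 0.36 and -0.38 just inside (Eif4e3 and Gm9946) and 0.47 and -0.26 just outside (Mis18a and Ccnl1). Next to 200 kb it gave 0.41 and 1.03 just inside (Aebp2 and Cenpw) and -0.26 and 0.36 just outside (4921531P14Rik and Ube3a).

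Most genes with a distal peak had only 1, and some had several. The distal peaks were assigned to 1002 genes, of which 711 had 1 distal peak and 101 had at least 3. Of 356 genes with a called distal peak, 58 had 2 or more, and in these the called peaks were all gained at 28 genes, all lost at 23 and mixed at 7 in the authors' deposited table. Non-coding RNA genes were the nearest gene for 431 distal peaks and protein-coding genes for 999. Rnu6, a multi-copy small nuclear RNA, was nearest to 13 peaks on several chromosomes, which therefore do not form 1 locus.

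Zeb2 and Cxcr4 had the most called distal peaks among protein-coding genes in which every called peak was gained. Zeb2, a zinc finger repressor that drives mesenchymal and neural crest programmes, had 4 distal peaks upstream on chromosome 2. The strongest fold there, 0.88 on the log2 scale (SE 0.165, FDR 5.73e-05) in the authors' deposited table, lay 114370 bp upstream at 45121650 to 45121998 (mm39). For the peak 79743 bp upstream, the authors' deposited table gave 0.75 (SE 0.129, FDR 7.04e-06). The other 2, 159536 and 162187 bp upstream, had 0.59 and 0.48 (FDR 0.000104 and 0.00917). All 4 were gained. Over every consensus peak within 200 kb of the Zeb2 start site, 26 of 35 had a fold above 0 in the authors' deposited table, and none was lost. Without the 4 distal peaks, 22 of 31 were above 0. The peak at the start site itself had a log2 fold of 0.33 (SE 0.144) and an FDR of 0.153.

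Cxcr4, the receptor for the chemokine Cxcl12, had 5 distal peaks upstream on chromosome 1, of which 4 were gained. These 4 lay within 17.612 kb of each other, from 128632685 to 128650297 (mm39). Their log2 folds in the authors' deposited table were 0.31, 0.61, 0.61 and 0.34 in order of distance, and their FDRs 0.0483, 0.0468, 6.08e-05 and 0.00307. The second of them, 115584 bp upstream, no longer passed with the trend along signal subtracted. The fifth, 176326 bp upstream, had a log2 fold of 0.51 and an FDR of 0.105 in the authors' deposited table. Of 17 consensus peaks within 200 kb of the start site, 14 had a fold above 0, with 5 gained and 0 lost. Without the 5 distal peaks, 9 of 12 were above 0. For the peak on the Cxcr4 start site the authors' deposited table gave 0.13 (SE 0.148, FDR 0.675), and for a stronger peak centred 1.27 kb from it 0.35 (SE 0.131, FDR 0.0941).

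Cxcl12, the ligand of that receptor and a marker of skeletal progenitors and stromal cells, had distal peaks on the other side of 0. All 6 had a fold below 0 in the authors' deposited table, and 3 were lost. The lost peaks lay 198707 and 193436 bp upstream and 50844 bp downstream, with log2 folds of -0.63 (SE 0.183, FDR 0.0198), -0.35 (SE 0.111, FDR 0.0379) and -0.57 (SE 0.164, FDR 0.0194). The other 3 ran from -0.79 to -0.22 with FDRs from 0.135 to 0.239. Within 200 kb of the start site, 19 of 27 consensus peaks had a fold below 0 in the authors' deposited table, with 4 lost and 0 gained. Without the 6 distal peaks, 13 of 21 were below 0. The fourth lost peak was the one at the start site of Cxcl12, at -0.20 on the log2 scale (SE 0.0606, FDR 0.0241) and with a signal of 54.0 CPM. With the trend along signal subtracted its fold was -0.14 and its adjusted p 0.163, and that of the peak 193436 bp upstream was 0.0858. Farther downstream on chromosome 6, a distal peak assigned to Gm9946, a non-coding gene that lies between Cxcl12 and Zfp637, was lost. Its log2 fold was -0.82 (SE 0.138, FDR 4.21e-06) in the authors' deposited table, at 117590800 to 117591447 (mm39).

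**Figure D3:**
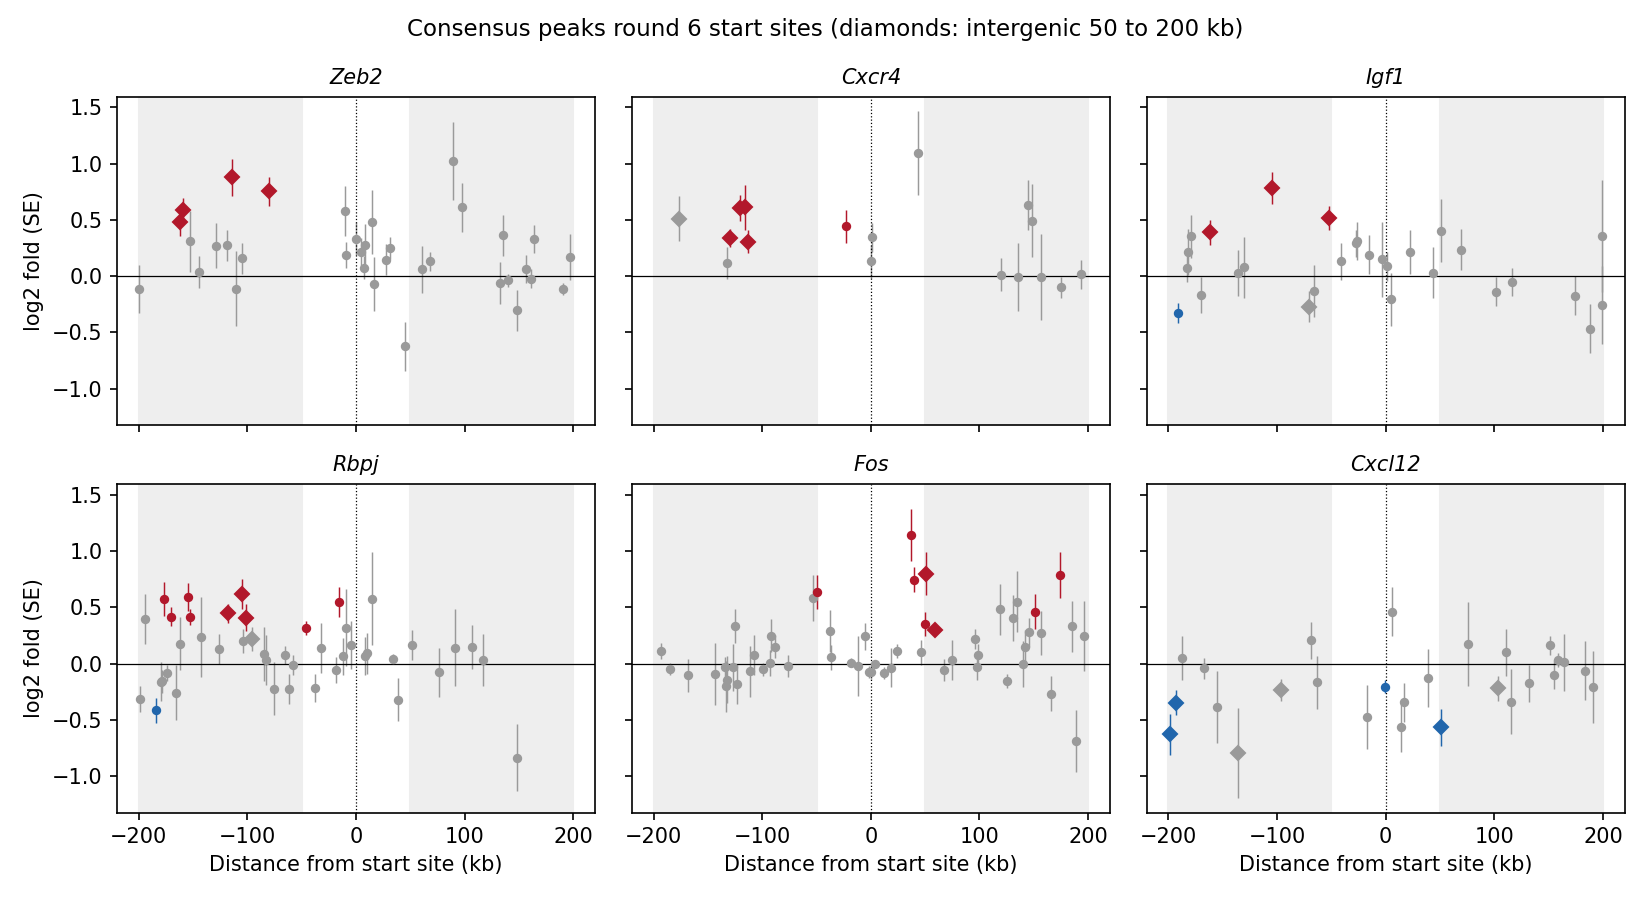
Log2 fold (knockout over control) of every consensus peak within 200 kb of 6 start sites in the authors' deposited table, by signed distance from the start site in kb, negative being upstream. Diamonds are the intergenic peaks 50 to 200 kb away, bars are the SE implied by the F, red is gained and blue lost at an FDR under 0.05, and grey shading marks 50 to 200 kb. At Zeb2, 26 of 35 peaks lie above 0, and at Cxcl12, 19 of 27 lie below it. Without the diamonds these counts are 22 of 31 and 13 of 21.

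Rbpj, the DNA-binding partner of the Notch receptors' intracellular domains, and its neighbour Smim20 shared a long stretch of distal peaks on chromosome 5. Nearest to Rbpj were 4 peaks, 95439 to 118058 bp upstream, all with folds above 0 and 3 of them gained in the authors' deposited table. Their log2 folds, from the farthest to the nearest, were 0.45 (SE 0.0838, FDR 5.62e-05), 0.62 (SE 0.131), 0.41 (SE 0.119) and 0.22 (SE 0.109, FDR 0.235). Nearest to Smim20, a gene for a small mitochondrial protein, were 7 peaks over 57.063 kb, of which 4 were gained and 2 lost in the authors' deposited table. Along these 7 peaks the direction turned once. Other consensus peaks between them, which did not meet the limits of the annotation, had folds of both signs. Examples are 0.40 (FDR 0.301) at 94.4125 kb and -0.26 (FDR 0.603) at 122.877 kb from the Smim20 start site. The 3 peaks nearest to Smim20, at 79807, 90135 and 104778 bp, had log2 folds of -0.27 (FDR 6.51e-05), -0.31 (FDR 0.0694) and -0.41 (FDR 0.0124) in the authors' deposited table. The 4 beyond them, at 111718 to 135703 bp and so towards Rbpj, had 0.57, 0.42, 0.59 and 0.42, with the smallest FDR 1.49e-05. The Smim20 peak at 79807 bp was among the strongest distal peaks, with 76.1 CPM.

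Igf1, a growth factor for bone-forming cells, had 4 distal peaks upstream on chromosome 10, of which 3 were gained. The gained peaks lay 52355, 104571 and 161704 bp upstream, and the authors' deposited table gave them log2 folds of 0.51 (SE 0.106), 0.78 (SE 0.144, FDR 4.41e-05) and 0.39 (SE 0.111). The fourth, 70520 bp upstream and so between them, had -0.27 (SE 0.136, FDR 0.242). The nearest peak to the assigned Igf1 start site, centred 1.55 kb from it, had 0.09 (SE 0.130) in the authors' deposited table. Of 29 consensus peaks within 200 kb of the Igf1 start site, 19 had a fold above 0, with 3 gained and 1 lost. Without the 4 distal peaks of Igf1, 16 of 25 were above 0. The lost peak lay upstream, was not one of those 4 and had -0.33 (SE 0.0874, FDR 0.0103) in the authors' deposited table. Fos, an AP-1 subunit that osteoclast differentiation requires, had 2 distal peaks downstream on chromosome 12, both gained. Their log2 folds were 0.80 (SE 0.194, 50708 bp) and 0.30 (SE 0.0585, FDR 0.000111, 59238 bp) in the authors' deposited table. Of 55 consensus peaks within 200 kb of the Fos start site, 32 had a fold above 0, with 8 gained and 0 lost. Without the 2 distal peaks of Fos, 30 of 53 were above 0. At the Fos start site the authors' deposited table gave -0.07 (SE 0.0581, FDR 0.501).

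Csf1, which encodes the macrophage colony-stimulating factor made by cells of the osteoblast lineage, had 1 distal peak, and its gain was among the largest. It lay 55771 bp upstream on chromosome 3, 107723478 to 107723634 (mm39), and was 158 bp wide with 3.18 CPM. The authors' deposited table gave it a log2 fold of 1.44 (SE 0.256, FDR 2.02e-05). The start-site peak of Csf1 had -0.07 (SE 0.0840) in the authors' deposited table. Of 57 consensus peaks within 200 kb, 26 had a fold above 0, with 2 gained and 2 lost. The other gained peak had 0.67 (SE 0.172, FDR 0.00652). Both lost peaks lay upstream, somewhat farther out than the gained distal peak. Their log2 folds were -0.59 (SE 0.183, FDR 0.0311) and -0.41 (SE 0.129, FDR 0.0330). The latter was a distal peak assigned to Eps8l3, in 1 run of 7.349 kb with the gained Csf1 peak.

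Gained stretches also lay next to non-coding genes. Of 8 distal peaks assigned to 4930431F10Rik, a long non-coding RNA gene between Prdm1 and Prep on chromosome 10, all had folds above 0 and 6 were gained, from 0.46 to 1.14 on the log2 scale in the authors' deposited table. The calls 58429 and 59301 bp away, at 1.99 and 2.33 CPM, did not pass with the trend along signal subtracted. All 5 distal peaks of 1700027F09Rik on chromosome 5 were gained in the authors' deposited table, by 0.46 to 1.20 on the log2 scale. Gm1653 lies between the adhesion receptor genes Adgrl2 and Adgrl4 on chromosome 3, and 4 of its 5 distal peaks were gained. The one 54513 bp upstream had the largest gain of those called at a signal above the median of all consensus peaks, 1.17 (SE 0.162, FDR 1.07e-08) in the authors' deposited table. All 6 distal peaks of 4930563J15Rik on chromosome 10, between Ado and Zfp365, had folds above 0, and 3 were gained in the authors' deposited table. The smallest FDR of any distal peak, 4.38e-11 in the authors' deposited table, belonged to a gained peak 196038 bp from 5930403N24Rik, a non-coding gene between Marcks and Rfpl4b, with a log2 fold of 0.79 (SE 0.0985).

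Among losses above the median signal, the largest lay near Gm20125, a non-coding gene between Nmbr and Cited2 on chromosome 10, and the authors' deposited table gave that peak -0.92 (SE 0.196). It was followed by Ube2v2 (-0.83), Gm9946 (-0.82), 4930426L09Rik (-0.82), Sh3bp4 (-0.81) and 5430440P10Rik (-0.73), a non-coding gene between Ndfip2 and Spry2. Under the same limit the gains after Gm1653 lay near 1700027F09Rik (1.00), 4930431F10Rik (0.89), Zeb2 (0.88), Ptger4 (0.87), Vash1 (0.84), Rplp1 (0.83) and Lyst (0.80) in the authors' deposited table. Ptger4 encodes a prostaglandin E2 receptor. Among the strongest peaks with small FDRs were Creb1 (gained, 0.36, 49.3 CPM, FDR 1.49e-05) and Thap1 (lost, -0.38, 40.8 CPM, FDR 4.64e-05) in the authors' deposited table. Creb1 encodes the cyclic AMP response factor. Gm27252, next to Klf13, had a gain of 0.74 (SE 0.105, FDR 2.54e-08) and Pid1, an inhibitor of insulin signalling, of 0.67 (FDR 5.81e-07) in the authors' deposited table.

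For the genes in the study's title, 1 distal peak was called at Klf4, a gain, and 1 at Irx5, a loss. Over all annotated peaks, Plagl1, Klf4 and Irx5 together had 2 gained and 4 lost of 15. The gains lay at 1 of these genes and the losses at 2. Klf4, a zinc finger factor, had 2 distal peaks upstream on chromosome 4. The authors' deposited table gave the one 198012 bp away a gain of 0.59 (SE 0.177, FDR 0.0255) and the one 91151 bp away a log2 fold of 0.32 (SE 0.145, FDR 0.184). At the Klf4 start site the log2 fold was -0.08 (SE 0.0539, FDR 0.387) in the authors' deposited table. Irx5, an Iroquois homeobox factor, had 1 distal peak, 148053 bp downstream on chromosome 8, 93231990 to 93232964 (mm39). It was lost in the authors' deposited table (-0.60, SE 0.194, FDR 0.0401), and the peak at the Irx5 start site was lost as well (-0.44, SE 0.0774, FDR 1.59e-05). Of 9 consensus peaks within 200 kb of the Irx5 start site, 4 had a fold above 0, with 0 gained and 2 lost. A distal peak 55806 bp upstream of Irx6, the next gene of the same cluster, was lost too (-0.68, SE 0.206) in the authors' deposited table, and the 2 distal peaks of Irx3 had -0.37 and -0.46 with FDRs of 0.198 and 0.240. In the list of 28 Iroquois and related homeobox genes, which leaves out Irx5, Irx6 had the only call among 7 distal peaks. Over all annotated peaks that list had 7 gained and 12 lost of 49. No distal peak was assigned to Plagl1 or Ctsk.

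Signalling genes showed both directions. In the WNT list of 44 genes, 9 had a distal peak, 14 in all, of which 2 were gained and 1 lost in the authors' deposited table. Over all annotated peaks the same list had 3 gained and 16 lost of 69. The gained peaks belonged to Fzd8, a WNT receptor (0.48, SE 0.126), and Apcdd1, a WNT inhibitor (0.62, SE 0.195), and the lost one to Sfrp1, a secreted WNT antagonist (-0.51, SE 0.168) in the authors' deposited table. The Apcdd1 call did not pass with the trend along signal subtracted. In the FGF and IGF list of 28 genes, 15 distal peaks of 9 genes held 4 gained and 2 lost, against 8 gained and 16 lost of 70 over all annotated peaks. Beside the 3 Igf1 peaks, the gain lay at Fgf18, a ligand active in bone and cartilage (0.61, SE 0.195), in the authors' deposited table, and did not pass with the trend subtracted (adjusted p 0.0604). The losses lay at Etv4, an ETS factor that responds to FGF (0.499-fold, SE 0.267 on the log2 scale), and Spry4, a feedback inhibitor of FGF signalling (-0.40, SE 0.109). All 3 distal peaks of Igfbp3, an IGF-binding protein, had folds below 0, from -0.98 to -0.57, with FDRs from 0.0823 to 0.217 in the authors' deposited table.

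In the BMP and TGF-beta list of 38 genes there were 3 distal peaks. One was gained upstream of Acvr2a, an activin and BMP receptor (0.53, SE 0.145), and one was lost upstream of Smad3, the TGF-beta effector (-0.42, SE 0.110), in the authors' deposited table. The third, also upstream of Smad3, had 0.69 (FDR 0.0685) according to the authors' deposited table, and over all annotated peaks the list had 6 gained and 11 lost of 54. Bmp2, the osteogenic ligand placed in the osteoblast list, had a gained peak 93287 bp upstream (0.90, SE 0.286, 2.55 CPM) and a second at -0.59 (FDR 0.0947) in the authors' deposited table. The gained Bmp2 peak did not pass with the trend along signal subtracted. Of 7 distal peaks of glucocorticoid-response genes, 2 were gained in the authors' deposited table, 1 at Sgk1, a kinase induced by glucocorticoid (0.54, SE 0.144), and 1 at Nr3c1, the glucocorticoid receptor (0.61, SE 0.187). The other 3 peaks of Nr3c1 had, in the authors' deposited table, -0.68 (FDR 0.117), -0.36 (FDR 0.0535) and 0.32 (FDR 0.0954). Over all annotated peaks the glucocorticoid list had 7 gained and 1 lost of 24. All 3 distal peaks of the AP-1 and immediate early list were gained, 2 at Fos and 1 at Egr2 (0.58, SE 0.144), and over all annotated peaks that list had 13 gained and 0 lost of 32.

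In the extracellular matrix list of 39 genes, 8 had a distal peak, 9 in all, of which 2 were gained and 4 lost in the authors' deposited table. Over all annotated peaks it had 9 gained and 22 lost of 71. The losses lay at Col6a3 (-0.35, SE 0.0858), at both distal peaks of Thbs2 (-0.37, SE 0.0911, and -0.28, SE 0.0751) and at Adamts9 (-0.78, SE 0.235) in the authors' deposited table. Thbs2 encodes the matrix glycoprotein thrombospondin 2 and Adamts9 a secreted protease of matrix proteoglycans. With the trend subtracted, the weaker Thbs2 loss had an adjusted p of 0.0703. The gains lay at Col4a2 (0.87, SE 0.253), a basement membrane collagen, and Col5a1 (0.32, SE 0.100), a fibrillar collagen, in the authors' deposited table. In the list of periosteal and skeletal progenitor markers, 17 distal peaks of 5 genes held the 3 lost peaks of Cxcl12 and 1 gained peak of Twist2, a mesenchymal helix-loop-helix factor (0.81, SE 0.196), in the authors' deposited table. The other 3 Twist2 peaks had, in the authors' deposited table, 0.37 (FDR 0.0619), 0.36 (FDR 0.0624) and -0.35 (FDR 0.242). Prrx1, Postn and Axin2, the other 3 genes, had 7 distal peaks with FDRs of 0.0983 and above. Over all annotated peaks the progenitor list had 2 gained and 8 lost of 41.

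Markers of other cell types contributed few distal peaks. The leukocyte and macrophage list of 24 genes had 3, with 0 gained and 1 lost at Irf8 (-0.34, SE 0.0919), a factor of myeloid cells, in the authors' deposited table. That call did not pass with the trend along signal subtracted, and the second Irf8 peak had 0.82 with an FDR of 0.0906. Over all annotated peaks the same list had 22 gained and 1 lost of 40, and the osteoclast list had 13 gained and 3 lost of 41. The osteoclast list had 1 distal peak, at Mitf (-0.53, FDR 0.0796). Among endothelial markers, 1 peak at Erg (-0.56, SE 0.117) and 1 at Kdr (-0.96, SE 0.209) were lost in the authors' deposited table, and the third distal peak of that list, also at Kdr, had 0.57 (FDR 0.197). Over all annotated peaks the endothelial list had 2 gained and 5 lost of 16. None of the 2 distal peaks of chondrocyte markers, 1 of tendon markers and 2 of epithelial markers was called. Adipocyte, skeletal muscle and Schwann cell lists had 0 distal peaks. The osteoblast list had 5, with 1 gained at Bmp2 and 0 lost, against 4 gained and 2 lost of 22 over all annotated peaks. A peak reached to within 1000 bp of the start site for 9 of 10 progenitor markers and 14 of 19 leukocyte markers whose start site could be placed, at 4.73 to 54.0 CPM and 3.80 to 86.6 CPM. For muscle and epithelium it was 0 of 2 and 0 of 3. It was 9 of 11 for both osteoclast and osteoblast markers, 8 of 10 for adipocyte and 4 of 5 for endothelial ones. For tendon, chondrocyte and Schwann cell markers it was 3 of 5, 2 of 3 and 1 of 1. Only genes with an annotated peak could be placed, which for muscle was 2 of 8 listed. The part of other cell types in the distal changes was not tested.

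Neighbouring distal peaks tended to lie on the same side of 0. With at most 20 kb between neighbours, 481 distal peaks formed 204 runs of 2 or more. In 149 of the runs all folds had 1 sign, above 0 in 85 and below 0 in 64 in the authors' deposited table. Of consecutive pairs less than 5 kb apart, 83.7% of 92 had folds of 1 sign. This share was 76.8% of 185 pairs at 5 to 20 kb, 67.5% of 151 at 20 to 50 kb, 63.4% of 175 at 50 to 200 kb and 50.8% of 321 at 200 to 1000 kb. Other consensus peaks round a called distal peak leaned the same way. Within 50 kb of gained distal peaks, 62.5% of 967 other peaks had a fold above 0 (median log2 0.08), and the authors' deposited table called 35 gained and 9 lost. Near lost ones, within the same distance, 42.8% of 860 had a fold above 0 (median log2 -0.05), with 8 gained and 19 lost. Over all consensus peaks the share above 0 was 50.4%. With the trend along signal subtracted, the shares above 0 were 59.4% and 40.1%, against 50.0% of all consensus peaks. The 65 peaks near both gained and lost distal peaks were left out. The called share was 4.55% near gained and 3.14% near lost distal peaks, against 5.62% of all consensus peaks. These differences were not tested.

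**Figure D4:**
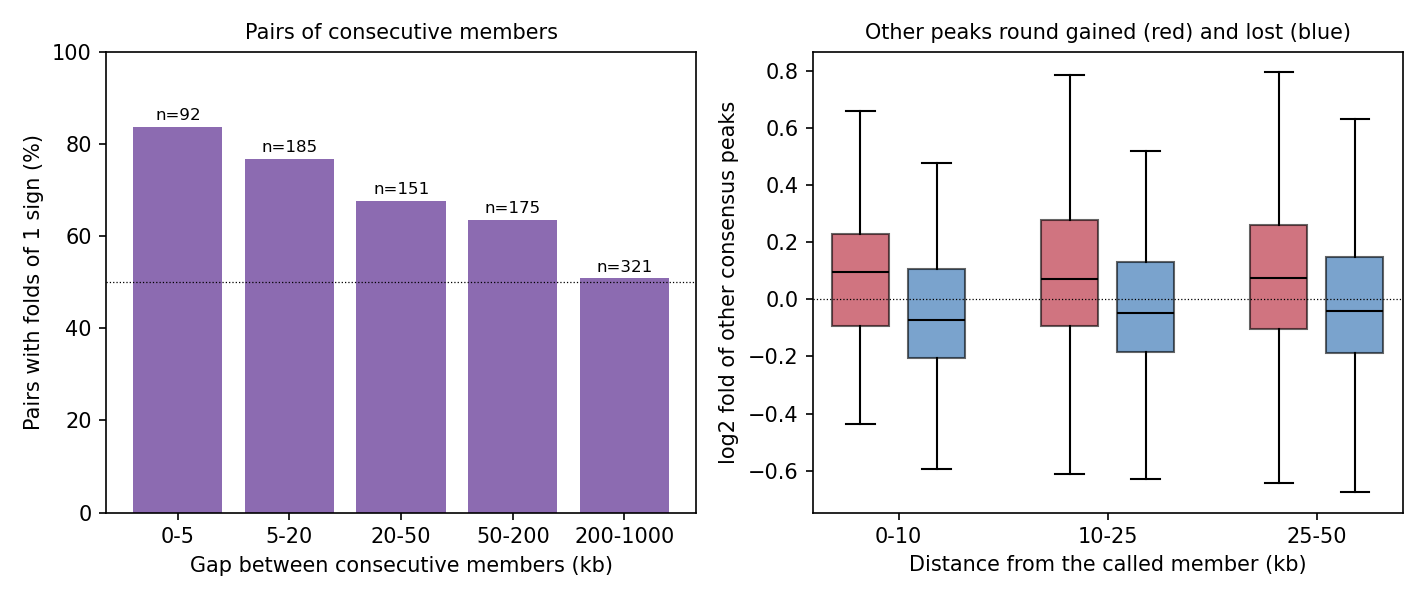
Left, share of consecutive pairs of distal peaks whose folds have 1 sign, by the gap between them in kb; n is the number of pairs, and the share goes from 83.7% at 0 to 5 kb to 50.8% at 200 to 1000 kb. Right, log2 fold, from the authors' deposited table, of other consensus peaks by distance from a gained (red) or lost (blue) distal peak; boxes are quartiles with the median, and whiskers reach the last value within 1.5 box heights.

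Peaks at the start sites of the assigned genes mostly had folds close to 0. The start site could be placed from the deposited distances for 1385 distal peaks, giving 935 sites. Of 162 sites whose called distal peaks were all gained, 113 had a peak with an edge within 1000 bp (the strongest was taken where there were several), with a median log2 fold of -0.03 and with 3 gained and 5 lost in the authors' deposited table. Of 167 sites with lost distal peaks alone, 110 had one, with a median of -0.07 and with 1 gained and 10 lost. Sites with no called distal peak had a median of -0.04 over 388 start-site peaks, with 6 gained and 21 lost in the authors' deposited table. The share of start-site peaks above 0 was 36.3% for gained, 30.9% for lost and 35.8% for no called distal peaks. With the trend along signal subtracted, these shares were 53.1%, 37.3% and 50.5%. The differences were not tested. Start sites called in the same direction as their distal peak included those of Itga4, an integrin chain (0.45, SE 0.0816, with a distal gain of 0.52), Adamts9 (-0.44, SE 0.0938) and Irx5 in the authors' deposited table. Fzd8 went the other way, with a gained distal peak and a start site at -0.20 (SE 0.0604, FDR 0.0262).

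**Figure D5:**
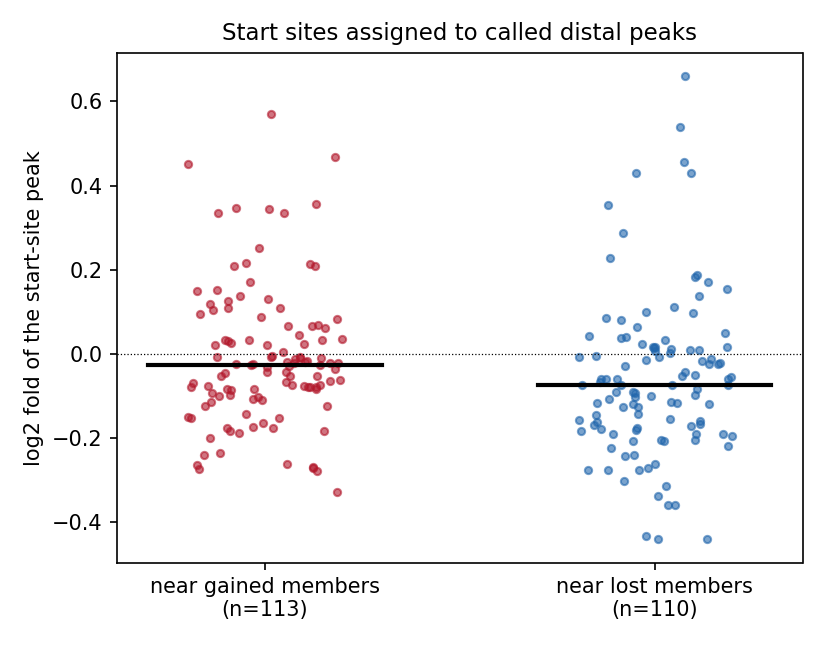
Log2 fold in the authors' deposited table of the peak at the start site of each gene with called distal peaks, for 113 start sites near gained and 110 near lost distal peaks. Each point is 1 start site, spread sideways for clarity, and the lines are medians of -0.03 and -0.07.

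In 2 genes at least 2 distal peaks and the start-site peak were all called in 1 direction, and both were losses, at Cxcl12 and Thbs2. For the Thbs2 start-site peak the authors' deposited table gave -0.27 (SE 0.0899, FDR 0.0441), which became -0.21 with an adjusted p of 0.177 once the trend along signal was subtracted. Their promoters are shown because they are the gene ends of these losses, as the 250 bases before the start site from RefSeq (GRCm38.p6). They lie at chr6:117168285-117168534 on the plus strand for Cxcl12 and chr17:14694263-14694512 on the minus strand for Thbs2, and capitals mark matches to the GC box described next.
Cxcl12: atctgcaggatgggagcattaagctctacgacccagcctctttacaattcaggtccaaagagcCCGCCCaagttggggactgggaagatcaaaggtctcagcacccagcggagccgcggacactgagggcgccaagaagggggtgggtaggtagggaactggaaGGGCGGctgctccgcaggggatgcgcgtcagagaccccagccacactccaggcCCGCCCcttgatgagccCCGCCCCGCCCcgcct
Thbs2: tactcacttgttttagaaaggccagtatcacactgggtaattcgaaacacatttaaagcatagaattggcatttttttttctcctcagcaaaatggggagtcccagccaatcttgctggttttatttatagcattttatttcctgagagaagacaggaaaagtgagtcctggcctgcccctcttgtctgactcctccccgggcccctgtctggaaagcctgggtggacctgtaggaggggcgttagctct

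The Cxcl12 promoter was 64.4% G or C with 14 CG pairs, and that of Thbs2 was 46.8% with 3, where 32536 promoters of that length had medians of 52.4% and 6. Of 12 motifs searched on both strands, the GC box GGGCGG, a sequence that SP and KLF factors can bind, matched the Cxcl12 promoter 5 times, with 2 of the matches sharing a base, and the Thbs2 promoter 0 times. It occurs in 33.0% of the 32536 promoters. The other 11 matched neither window, and they were TGANTCA (AP-1, in 6.73% of promoters), TGTGGTT (RUNX, 4.41%), GGAATG (TEAD, 12.6%), GAGGAAGT (PU.1, 2.45%), GGGGCCCC (PLAGL1, 0.885%), GGGTGTGG (KLF, 3.20%), ACATGT (IRX, 4.49%), CANATG (E-box, 34.9%), ATTTGCAT (OCT, 1.62%), the longer motifs of the glucocorticoid receptor (0.0369%) and CTCF (0.298%). A match describes letters only. The sequence of the distal peaks themselves was not analysed here.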

How the data were processed

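ATAC-seq of 2 control and 2 Plagl1 knockout libraries was available as 2 tables made by the authors. The build was mm39, and the tools, with no role or order given, were DiffBind 3.16.0, HOMER, deepTools 3.5.5, Bowtie2 2.5.4, SAMtools 1.21, GATK 4.5.5.0 and Trim Galore 0.6.10, per the submitters' processing notes. How peaks were called, reads shifted or libraries scaled is not given in the sources used here.

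The authors deposited, per the file headers, the log2 fold and the mean log2 CPM, the F score, and the p-value and FDR of an edgeR comparison for 85925 consensus peaks, and an annotation in the layout of HOMER for 15221 of them. The FDR matched a Benjamini-Hochberg adjustment of the deposited p-values of all consensus peaks to within 6.73e-06 and was used as deposited, with a peak called gained or lost at an FDR under 0.05. Dividing each absolute log2 fold by the square root of its F gave the standard error. On log2 scales it followed CPM with slope -0.52 (r squared 0.997), so that the deposited test barely used a peak's own spread between libraries. Depth and values per library are not analysed here.

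Intervals of shares are exact Clopper-Pearson 95% intervals and cover counting error only. The trend of fold with signal was a running median over 2000 consensus peaks. Signal bins held equal numbers of all annotated peaks. The deposited distances placed the start sites, with a tolerance of 5 bp (3258 of 3270 transcripts with several peaks gave 1 site), and a start-site peak had an edge within 1000 bp, the strongest being taken. Gene neighbours, gene strands and promoter sequences came from RefSeq tables of GRCm38.p6, used without their coordinates for any peak. The trend subtraction was tested on simulated data.

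Named peaks were all those of Plagl1, Klf4, Irx5 and Ctsk, the 10 largest gains and losses above the median signal (1 per gene), the 10 smallest FDRs in each direction, the 8 genes with the most called peaks, and up to 3 genes from each list. The distal peaks, gene lists and this rule were chosen with earlier results of these data known. The loci drawn, the neighbour, gap and start-site comparisons, the choice of promoters, the GC box, and other peaks named with values were chosen after values were seen. The lists were leukocyte and macrophage, osteoclast, osteoblast, progenitor, chondrocyte, adipocyte, tendon, endothelium, muscle, Schwann cell, epithelium, WNT, BMP and TGF-beta, FGF and IGF, glucocorticoid, AP-1, extracellular matrix, the study's genes, and Iroquois and related homeobox genes. Scripts ran in Python 3.11.15 with matplotlib 3.10.9, statsmodels 0.14.6, scipy 1.17.1, pandas 2.3.3 and numpy 2.4.6.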

Additional observations from a re-analysis of the deposited data

How the results depend on the processing

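At an FDR under 0.01, 164 distal peaks were called (94 gained, 70 lost, 57.3% gained), and at an FDR under 0.1, 729 (377 gained, 352 lost). Where the log2 fold also had to reach 0.5 in size, 238 were called, of which 80 were lost and 66.4% gained. Above the median signal of all consensus peaks, the gained share was 43.0% and the median log2 fold of the distal peaks -0.27, against 52.4% and -0.20. At 75 to 200 kb, 268 were called, 134 gained and 134 lost. With an assumed coefficient of variation of 0.1 between libraries added to the implied standard error, 5 remained, all gained (100%), and 0 were lost. These 5 lay at 5930403N24Rik, Csf1, Gm1653, 1700027F09Rik and Asmt. With the trend along signal subtracted, 369 were called, including 323 of the 439, and the cause of these shifts was not tested. The median log2 fold, which falls in the gap between the directions, became 0.21 at 50 to 150 kb and 0.26 with repeats kept, inside its interval of -0.23 to 0.28. Of 117 named peaks, 83 no longer passed with the added variation and 7 with the trend subtracted, and none turned its direction under these settings. No paired analysis was possible because the tables hold no value per library, and leaving out replicates was not run for the same reason.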
